A study of Homo sapiens with 4 samples.

Results

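The 10 genes described here encode metallothioneins, the factor that switches them on and transporters that move zinc across membranes. They are MT1E, MT1F, MT1G, MT1M, MT1X and MT2A, the transcription factor MTF1, the zinc exporter SLC30A1 and the zinc importers SLC39A10 and SLC39A4. They were chosen by gene symbol, and are 10 of the 58233 genes in the count table. The study sequenced mRNA of MIA PaCa-2 and PANC-1, which are established human pancreatic cancer cell lines, to find genes that respond to cannabichromene (CBC), a cannabinoid of hemp. Wild-type MIA PaCa-2 cells received 35 µM CBC and wild-type PANC-1 cells received 30 µM CBC, doses taken from the study's text, and both were collected after 24 h. The control library of each line is labelled PBS, where the study's methods speak of a vehicle. The methods give acetonitrile as the solvent of CBC. If the controls received PBS alone, effects of CBC and of its solvent cannot be told apart. There was 1 library per condition and 4 libraries in all, so differences within a line have no check between replicates, and the lines also differ in dose.

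Metallothioneins are small cysteine-rich proteins that bind zinc, copper and cadmium and buffer free zinc in the cell. When free zinc or cadmium rises, MTF1 enters the nucleus and binds metal response elements (MREs) in the promoters of metallothionein genes and of SLC30A1. Exporters of the SLC30 (ZnT) family lower cytosolic zinc, and importers of the SLC39 (ZIP) family raise it. The transcript levels of metallothioneins and SLC30A1 are therefore widely used as a readout of the zinc status of cells.

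The 6 metallothionein genes lie in a single cluster on chromosome 16 (GRCh38), between the start of MT2A at 56608584 and the end of MT1X at 56684196. MTF1 and SLC30A1 are on chromosome 1, at 37809574 to 37859592 and 211571568 to 211579161, and SLC39A10 is on chromosome 2, at 195575977 to 195737702. Promoter sequence was found for 5 of the 10 genes in RefSeq (GRCh38.p14), namely MT1X, MT2A, MTF1, SLC30A1 and SLC39A10, and for MT1E, MT1F, MT1G, MT1M and SLC39A4 no entry was used. The 250 bases before the annotated start are printed for the 3 genes that hold the MRE core, because the core is the letters MTF1 reads. Capitals mark the MRE core, searched as TGCACNC or TGCGCNC on both strands, so a match on the other strand reads as its reverse complement. The windows are chr16:56608334-56608583 for MT2A (plus strand), chr16:56682220-56682469 for MT1X (plus strand) and chr1:211579162-211579411 for SLC30A1 (minus strand).
MT2A: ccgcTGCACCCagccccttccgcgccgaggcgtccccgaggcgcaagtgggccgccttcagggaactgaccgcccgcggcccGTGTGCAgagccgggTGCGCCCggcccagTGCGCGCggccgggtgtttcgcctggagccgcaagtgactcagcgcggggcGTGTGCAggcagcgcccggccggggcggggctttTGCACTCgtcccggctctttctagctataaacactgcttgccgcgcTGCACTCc
MT1X: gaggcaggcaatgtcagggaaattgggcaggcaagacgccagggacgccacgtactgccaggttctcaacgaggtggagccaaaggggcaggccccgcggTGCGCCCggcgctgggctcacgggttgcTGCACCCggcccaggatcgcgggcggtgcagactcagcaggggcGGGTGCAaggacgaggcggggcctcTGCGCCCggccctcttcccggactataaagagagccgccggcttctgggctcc
SLC30A1: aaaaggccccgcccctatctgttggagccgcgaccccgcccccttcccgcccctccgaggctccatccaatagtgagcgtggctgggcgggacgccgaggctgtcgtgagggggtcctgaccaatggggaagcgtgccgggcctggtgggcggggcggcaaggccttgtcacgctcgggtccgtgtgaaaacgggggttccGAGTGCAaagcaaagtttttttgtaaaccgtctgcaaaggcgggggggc

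The MT2A window held 7 MRE cores, the MT1X window 4 and the SLC30A1 window 1, and those of MTF1 and SLC39A10 held 0. Of all 35116 RefSeq promoter windows of this length, 24.8% held at least 1 core, 0.37% at least 4 and 0.0313% at least 7. Among 30 windows of other metallothionein and zinc transporter genes, 13 held a core. MT1H, whose window held 8, had at most 1 count in any library. The core of the antioxidant response element (ARE), the letters TGACNNNGC that NRF2 reads, was found once each in the MT2A, MT1X and SLC30A1 windows and in 10.9% of all windows. The MT2A match, TGACTCAGC, also contains the AP-1 letters TGACTCA. These matches describe the printed windows, and binding was not measured here.

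**Figure D1:**
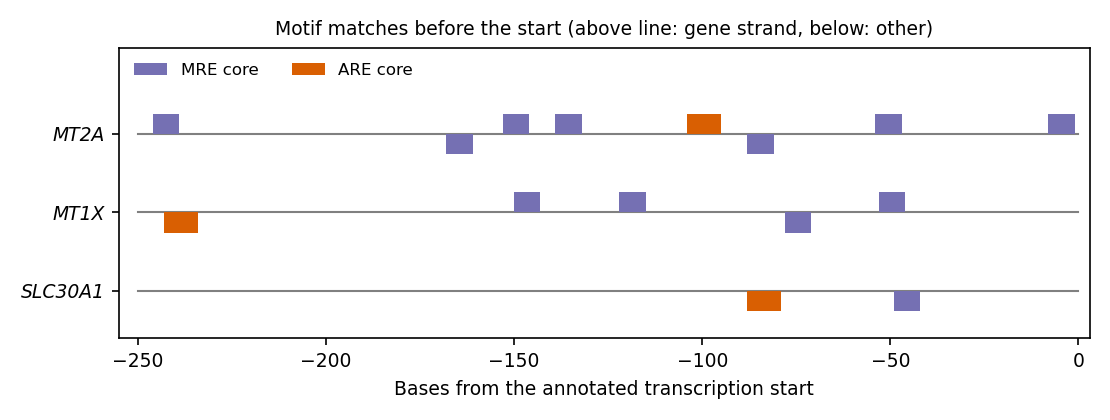
Positions of MRE core (purple) and ARE core (orange) matches in the 250 bases before the annotated start of MT2A, MT1X and SLC30A1, in bases from the start on the x axis. Blocks above a line are on the gene's strand and blocks below it on the other strand, and MT2A holds 7 MRE cores against 4 in MT1X and 1 in SLC30A1.

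The libraries held 21742775 to 27903667 counts on genes. Levels are given as CPM, counts relative to library sizes that were scaled by the trimmed mean of M-values (TMM) method, and a log2 fold change compares 2 libraries after this scaling with a prior count of 2. The 95% intervals are exact binomial (Clopper-Pearson) and cover counting error only, not differences between cultures. In bulk RNA, fewer expressing cells and less RNA per cell cannot be told apart. Keratins 8, 18 and 19, markers of epithelial cells, had between 3976 and 40044 counts in every library. Keratin 7 was scarce, with 2 and 52 counts in MIA PaCa-2 cells without and with CBC and 49 and 58 in PANC-1 cells. EPCAM and CDH1, which also mark epithelial cells, had at most 1 count in the MIA PaCa-2 libraries and 32 to 264 in the PANC-1 libraries. Of the acinar markers (5 genes) and endocrine markers (4 genes) of normal pancreas, none had more than 1 count in any library. PTPRC and CD3E, which mark immune cells, and DCN and PECAM1, which mark fibroblasts and endothelium, had 0 counts. The collagen gene COL1A1 had 11 and 13 counts in the MIA PaCa-2 libraries and 3037 and 1268 in the PANC-1 libraries. COL3A1, a further collagen gene, went the other way between the lines, with 61 and 2 counts in the MIA PaCa-2 libraries and 0 in both PANC-1 libraries. The part of these differences in the results was not tested.

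Per kilobase of transcript, MT2A was the most abundant of the 10 genes in all 4 libraries, at 1250 CPM per kb in the MIA PaCa-2 control and 850 in the PANC-1 control. MT1E came next, at 399 and 125 CPM per kb. MT1X followed at 98.8 and 22.6 CPM per kb. MT1G stood at 78.2 CPM per kb in MIA PaCa-2 cells, where it ranked just below MT1X, and had 0 counts in both PANC-1 libraries. The transporters and MTF1 were lower: in the controls SLC39A10 was at 28.3 and 14.4, SLC30A1 at 12.5 and 16.9, MTF1 at 5.08 and 6.17 and SLC39A4 at 5.89 and 2.98 CPM per kb in MIA PaCa-2 and PANC-1 cells. MT1F and MT1M stayed near the limit of 3 counts, which is 0.11 to 0.135 CPM in these libraries. MT1F had 0 and 1 counts in MIA PaCa-2 cells without and with CBC, and 1 and 13 in PANC-1 cells. MT1M had 3 and 6 counts in MIA PaCa-2 and 0 in both PANC-1 libraries.

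**Figure D2:**
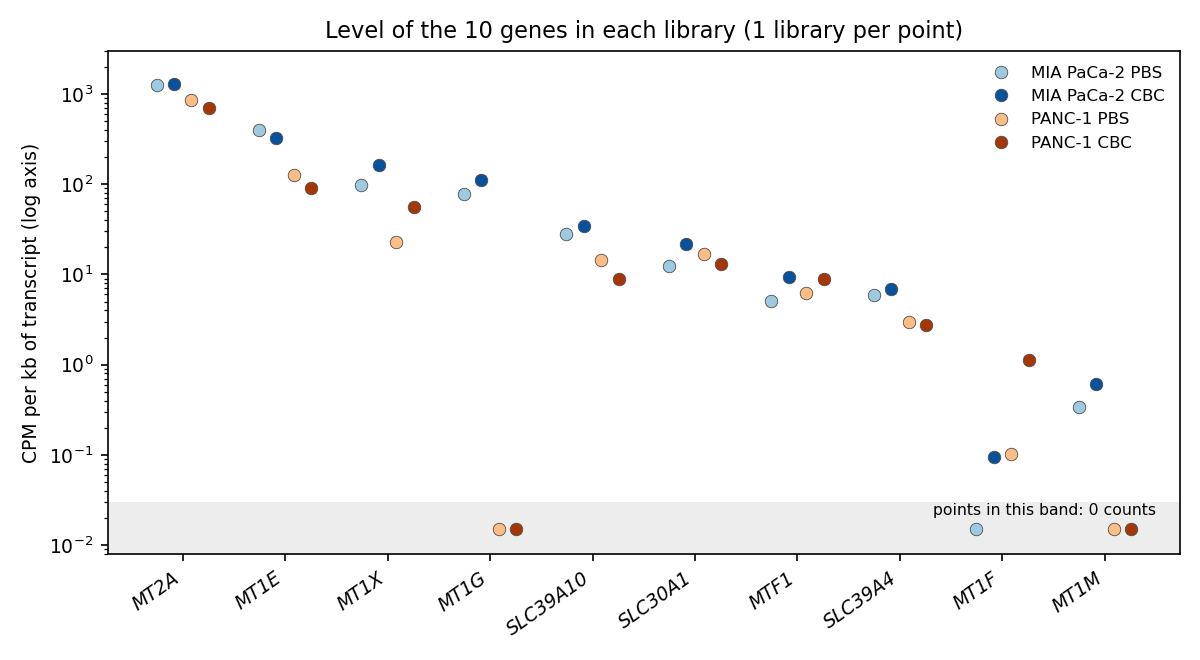
Level of each of the 10 genes in each of the 4 libraries, in CPM per kb of transcript on a log axis, with 1 point per library and points in the grey band at 0 counts. MT2A lies highest throughout, at 699 to 1285 CPM per kb, and MT1G is present in the MIA PaCa-2 libraries only, at 78.2 and 111 CPM per kb.

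CBC treatment left the summed metallothionein transcripts nearly level in MIA PaCa-2 and slightly lower in PANC-1 cells. Summed over the 6 metallothionein genes, the level was 871 CPM in MIA PaCa-2 without CBC and 868 CPM with it. In PANC-1 cells the sum was 443 CPM without CBC and 372 CPM with it. The log2 fold change was -0.01 (-0.03 to 0.02) in MIA PaCa-2 and -0.25 (-0.29 to -0.21) in PANC-1 cells. HMOX1, which encodes heme oxygenase 1 and responds to metals, heme and oxidants, went from 10.6 to 403 CPM and from 38.8 to 1022 CPM in the same libraries. The sums therefore moved by far less than HMOX1, whose log2 fold change was 5.24 and 4.72.

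Behind the level sum, single metallothioneins went different ways. MT1X was at 39.9 CPM in MIA PaCa-2 control cells and 66.3 CPM after CBC, and at 9.15 and 22.8 CPM in PANC-1. It was higher after CBC in both lines, by a log2 fold change of 0.73 (0.61 to 0.85) in MIA PaCa-2 and 1.31 (1.09 to 1.55) in PANC-1 cells. MT1G, counted in MIA PaCa-2 cells alone, stood at 32.1 CPM without CBC and 45.6 CPM with it, a log2 fold change of 0.51 (0.37 to 0.65). MT1E was lower after CBC in both lines. It measured 298 and 240 CPM in MIA PaCa-2 and 92.9 and 68.4 CPM in PANC-1, log2 fold changes of -0.31 (-0.36 to -0.26) and -0.44 (-0.53 to -0.35). MT2A, the main metallothionein of most human cells, hardly moved in MIA PaCa-2 cells. It was at 501 and 515 CPM there and at 341 and 280 CPM in PANC-1, log2 fold changes of 0.04 (0.00 to 0.08) and -0.28 (-0.33 to -0.24). Of the 2 scarce genes, MT1F had 10.8 times the level after CBC in PANC-1 cells, with a counting interval of 1.62 to 460. MT1M had 1.8 times the level in MIA PaCa-2 cells, with an interval of 0.384 to 11.1 that includes no difference.

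The regulator and the transporters moved as follows. MTF1, the zinc sensor, was at 40.3 CPM without and 73.5 CPM with CBC in MIA PaCa-2 cells, against 48.9 and 70.6 CPM in PANC-1. Both lines were thus higher after CBC, by 0.87 (0.75 to 0.99) and 0.53 (0.42 to 0.64) on the log2 scale. SLC30A1, which exports zinc across the plasma membrane, went opposite ways: 73.9 to 128 CPM in MIA PaCa-2 and 99.7 to 77.9 CPM in PANC-1. Its log2 fold changes were 0.80 (0.71 to 0.88) and -0.35 (-0.44 to -0.27). SLC39A10, a plasma membrane importer, also went opposite ways, from 148 to 179 CPM and from 75.0 to 46.7 CPM. Its log2 fold changes were 0.28 (0.21 to 0.34) and -0.68 (-0.79 to -0.58). SLC39A4, on chromosome 8, the importer of dietary zinc in the gut, measured 12.5 and 14.5 CPM in MIA PaCa-2 and 6.33 and 5.89 CPM in PANC-1. Both of its counting intervals included 0, at -0.02 to 0.44 and -0.44 to 0.23. Whether these genes respond differently in the lines could not be tested with 1 library per condition.

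**Figure D3:**
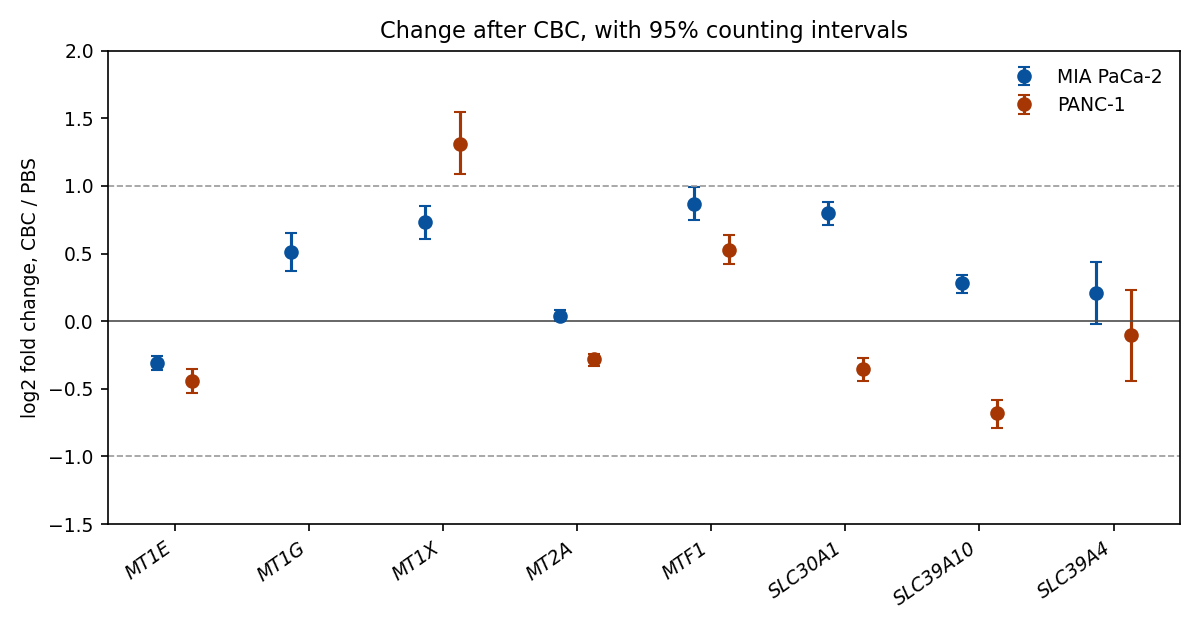
Log2 fold change of CBC against PBS (y axis) for the 8 genes with at least 1 CPM, in MIA PaCa-2 (blue) and PANC-1 (brown) cells, with 95% counting intervals as bars and dashed lines at 2-fold. MT1X in PANC-1 cells, at 1.31, is the only point past 2-fold, and SLC30A1 and SLC39A10 lie on opposite sides of 0 in the 2 lines.

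A gene was taken as past 2-fold in a line when it had at least 1 CPM in 1 of the 2 libraries and a log2 fold change over 1 or under -1. In MIA PaCa-2 cells 0 of the 8 genes with that level were past 2-fold, where 11.5% of 14001 genes were higher and 8.97% lower by this rule. In PANC-1 cells 1 of 7, MT1X, was higher and 0 were lower, where 7.71% of 14091 genes were higher and 7.03% lower. The median log2 fold change of these genes was 0.39 in MIA PaCa-2 and -0.28 in PANC-1 cells, against -0.01 and 0.02 over all genes. The counts past 2-fold are thus close to or below the background in both lines.

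CBC was then compared with PBS over both lines by the quasi-likelihood test of edgeR, blocked on cell line, with 1 residual degree of freedom. Of 16381 genes tested, 4.71% passed an adjusted p of 0.05, 2.26% higher and 2.45% lower. None of the 8 genes tested here passed, so the count was 0. At an unadjusted p under 0.05 there were 2, MT1X and MTF1, and DESeq2's Wald test called 1, MT1X. In edgeR MT1X had a log2 fold change of 1.02 (SE 0.26, adjusted p = 0.0706), and MTF1 had 0.70 (SE 0.23, adjusted p = 0.13). For MT1X, DESeq2 gave an adjusted p of 0.0374. Over the other settings tried in edgeR with the block, the adjusted p of MT1X ran from 0.0077 without a filter on low counts to 0.0921 with DESeq2 size factors, and without the block it was 1.0. The remaining 6 genes had log2 fold changes from -0.37 for MT1E to 0.53 for MT1G. The MT1G value rests on the MIA PaCa-2 pair alone, since both PANC-1 libraries had 0 counts, and DESeq2 gave 0.16 for it. In the same edgeR test HMOX1 rose by 4.99 (SE 0.24, adjusted p = 0.000761) and TXNRD1, a thioredoxin reductase gene with an ARE, by 1.12 (SE 0.16, adjusted p = 0.0158).

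Without CBC the metallothionein sum was 1.97 times higher in MIA PaCa-2 than in PANC-1 cells, 871 against 443 CPM, a log2 difference of 0.98 (0.94 to 1.01). MT1G showed the widest gap, with 713 counts against 0, so that its level was at least 243-fold higher in MIA PaCa-2 cells, with the limit of 3 counts taken per library. MT1X was higher by 2.12 (1.91 to 2.35) and MT1E by 1.68 (1.61 to 1.75) on the log2 scale. MT2A differed less, by 0.56 (0.51 to 0.60). SLC39A10 and SLC39A4 were higher in MIA PaCa-2 cells by 0.98 (0.89 to 1.06) and 0.97 (0.69 to 1.28). MTF1 and SLC30A1 were lower there, by log2 differences of -0.28 (-0.41 to -0.15) and -0.43 (-0.52 to -0.34). Past 2-fold, 3 of 8 genes were higher in MIA PaCa-2 and 0 lower, where 18.0% of 14805 genes were higher and 24.0% lower. MT1G is among the 3, but it met the level rule only through MIA PaCa-2 cells and so could only come out higher there. Scaled by library totals in place of TMM, the median of all genes shifted by 0.132 towards MIA PaCa-2 cells, and SLC39A10 and SLC39A4 also passed 2-fold.

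The difference between the lines was tested over both treatments in the same edgeR fit, where 46.7% of genes passed, 21.7% higher and 25.1% lower in MIA PaCa-2 cells. The 6 genes that passed were all higher in MIA PaCa-2 cells: MT1E, MT1G, MT1X, MT2A, SLC39A10 and SLC39A4. MT1G had 0 counts in both PANC-1 libraries and entered the test through the MIA PaCa-2 libraries alone. Its direction was thus fixed in advance, and its call adds nothing to the count. MT1E differed by 1.80 (SE 0.20, adjusted p = 0.000319) and MT1X by 1.89 (SE 0.27, adjusted p = 0.00102) in edgeR's test. MT2A differed by 0.78 (SE 0.19, adjusted p = 0.0113), SLC39A10 by 1.52 (SE 0.28, adjusted p = 0.00341) and SLC39A4 by 1.20 (SE 0.34, adjusted p = 0.0215). MTF1 at -0.05 and SLC30A1 at 0.20 did not pass. The 2 libraries of a line differ in treatment, and the p-values rest on the spread that is left between them.

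The make-up of the metallothionein pool differed by line, and within a line MT2A kept the largest share. Of all counts on listed metallothionein genes, MT2A made up 55.0% and 57.8% in MIA PaCa-2 cells without and with CBC, and 54.5% and 58.4% in PANC-1 cells. MT1E made up 32.7% and 26.9% in MIA PaCa-2 cells but 14.9% and 14.3% in PANC-1 cells. MT1X made up 4.38% and 7.44% in MIA PaCa-2 cells, and 1.46% (Clopper-Pearson 1.27 to 1.67) and 4.75% (4.39 to 5.13) in PANC-1 cells. The share of MT1X was thus higher after CBC in both lines. In PANC-1 cells MT1L, a transcribed pseudogene of the cluster, held 22.3% and 20.0%, against 2.8% and 1.75% in MIA PaCa-2 cells. MT1A, a further functional metallothionein gene, held 6.76% and 2.44% in PANC-1 cells.

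**Figure D4:**
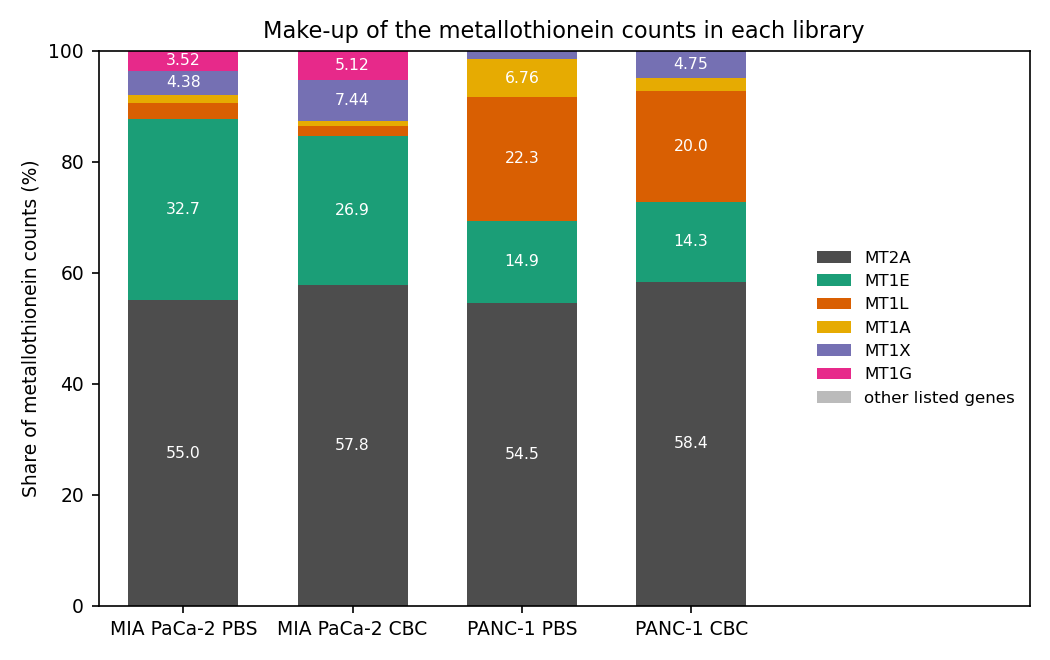
Share of the counts on all listed metallothionein genes (y axis, percent) taken by each gene in each library. MT2A takes 54.5% to 58.4% in every library, MT1E the next largest share in MIA PaCa-2 and MT1L in PANC-1 cells.

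Not all metallothionein genes of the cluster went the way of MT1X. MT1A, which lies at 56638666 to 56640087, measured 13.8 and 7.88 CPM in MIA PaCa-2 and 42.3 and 11.7 CPM in PANC-1. It was lower after CBC in both, with log2 fold changes of -0.81 (-1.08 to -0.55) and -1.84 (-2.04 to -1.67), and did not pass the edgeR test (-1.34, SE 0.34, adjusted p = 0.074). Without CBC, MT1A and MT1L were lower in MIA PaCa-2 than in PANC-1 cells, by log2 differences of -1.60 and -2.45, opposite to the 4 metallothioneins above. MT1L was singled out after its values were seen. Over all listed metallothioneins, the sum was 911 CPM in MIA PaCa-2 and 625 CPM in PANC-1 control cells. CBC brought this wider sum to 892 and 480 CPM, log2 fold changes of -0.03 and -0.38.

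Metallothionein genes are similar in sequence, so reads could be shared between them. None of the 100-base stretches of MT1E, MT1F, MT1G, MT1M and MT2A transcripts occurred in another gene. Of those of MT1X, 11.6% did, all in ENSG00000259827, a noncoding RNA that had 0 counts in every library. It overlaps MT1X on the same strand over 1727 bases, the whole length of the gene. The counting mode was not given, so the 0 counts do not show whether MT1X lost reads to this overlap. At 50 bases the shared part was 7.1% for MT1E, 16.4% for MT1G, 18.2% for MT1M, 18.7% for MT1X and 4.48% for MT2A. The effect on the counts was not tested, and values of single metallothioneins carry this uncertainty.

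Among the other zinc transporters, most stayed within 2-fold after CBC, and the importer gene SLC39A8 changed most in both lines. Of 9 further exporter genes, 6 had at least 1 CPM in MIA PaCa-2 and 5 in PANC-1 cells, and 0 were past 2-fold in either line. Of 12 further importer genes, 9 had that level in each line. In MIA PaCa-2 cells 1 was higher (SLC39A7) and 1 lower (SLC39A8) by more than 2-fold, and in PANC-1 cells 0 were higher and 1 lower (SLC39A8). SLC39A8 encodes ZIP8, a plasma membrane importer of zinc and manganese. It stood at 132 without and 16.6 CPM with CBC in MIA PaCa-2, and at 3.69 and 1.46 CPM in PANC-1, log2 fold changes of -2.99 (-3.15 to -2.84) and -1.29 (-1.92 to -0.78). Over both lines SLC39A8 fell by 2.29 on the log2 scale (SE 0.40, edgeR adjusted p = 0.0252). It was the only one of the 9 importers to pass, where 4.71% of all genes did. This call was lost at a filter of 5 CPM in 2 libraries, where the adjusted p was 0.0536, and without the block. SLC39A7, which releases zinc from the endoplasmic reticulum and Golgi, stood at 102 without and 220 CPM with CBC in MIA PaCa-2, and at 170 and 151 CPM in PANC-1, log2 fold changes of 1.10 (1.03 to 1.17) and -0.18 (-0.24 to -0.11).

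Copper binds metallothioneins too, and of 11 copper-handling genes 10 had at least 1 CPM. In MIA PaCa-2 cells 0 were past 2-fold and in PANC-1 cells 1, the copper importer SLC31A1, was higher. SLC31A1 stood at 94.0 without and 136 CPM with CBC in MIA PaCa-2, and at 41.7 and 84.3 CPM in PANC-1, by 0.53 (0.46 to 0.61) and 1.01 (0.91 to 1.13) on the log2 scale. None of the 10 passed the edgeR test over both lines, where 4.71% of all genes did. Of 5 further genes that metals and oxidants induce, HMOX1 and TXNRD1 were higher by more than 2-fold in both lines. The heat shock genes HSPA1A and HSPA1B had log2 fold changes of 0.52 and 0.34 in MIA PaCa-2 and -1.08 and -0.85 in PANC-1 cells. GCLM, a subunit of the enzyme that starts glutathione synthesis, had -0.51 and 0.73.

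**Figure D5:**
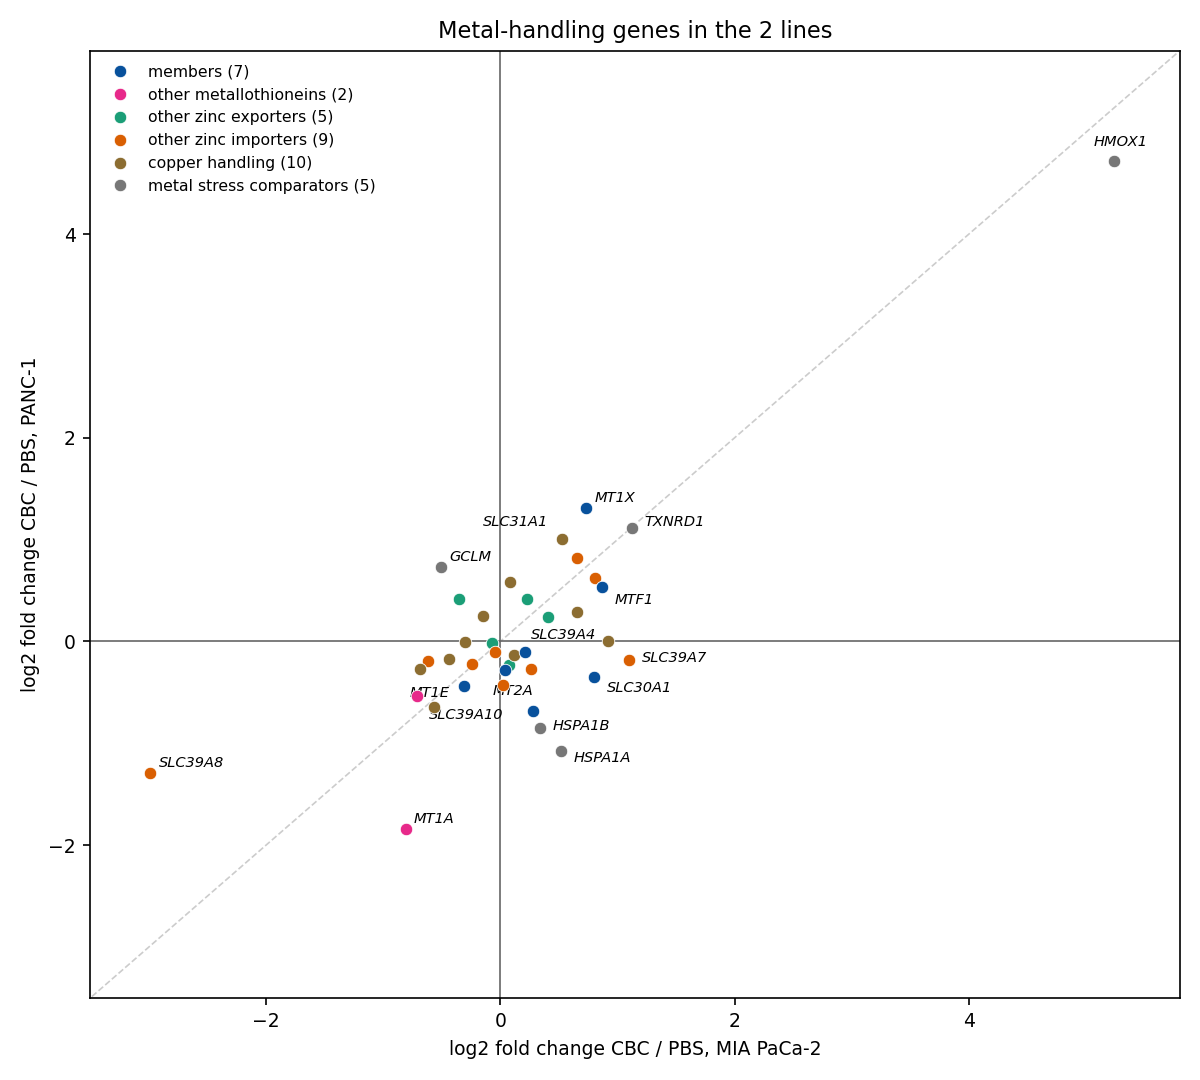
Log2 fold change of CBC against PBS in MIA PaCa-2 (x axis) and PANC-1 cells (y axis) for metal-handling genes with at least 1 CPM in both lines, 1 point per gene, with the diagonal dashed. HMOX1 lies far out at 5.24 and 4.72, SLC39A8 at -2.99 and -1.29, and 7 of the genes described here (members, blue) lie within 1.31 of 0 on both axes.

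The genes most like the metallothionein sum were sought by the distance between the log2 differences of the 3 comparisons (CBC in each line and the lines without CBC), among 10027 genes that averaged 10 CPM or more. The 5 nearest were TOR1A (distance 0.047), GTF3C5 (0.066), PABPN1 (0.068), SINHCAF (0.069) and IRF3 (0.083). TOR1A, an ATPase of the endoplasmic reticulum, had log2 differences of 0.03, -0.28 and 0.99, beside -0.01, -0.25 and 0.98 for the sum. The 3 comparisons share control libraries, and likeness over 4 libraries is a description only.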

How the data were processed

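Messenger RNA was sequenced with paired reads from a directional kit. Per the labels and methods, the authors trimmed the reads (cutadapt 2.7), aligned them to GRCh38 (STAR) and counted them per Ensembl gene (HTSeq, strand setting and mode not given in the sources used here), and deposited raw counts. A normalized signal per library, deposited by the authors, is CPM on TMM-scaled library sizes and matched the counts within a relative difference of 6.84e-09. Every column belonged to a sample (0 unmapped).

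The counts were analysed with edgeR 4.0.16 in R 4.3.3 (TMM over 4 libraries, prior count 2), intervals with scipy 1.17.1, and DESeq2 1.42.0 as an alternative. Depth was 21742775 to 27903667 counts. The cell line was the block, since CBC and PBS libraries of a line pair. Deviations from treatment means correlated at 0.923 across genes. With 2 lines this value is the same for both by construction. It shows that the lines differ alike under both treatments, and it does not test the pairing of single libraries. Positions and lengths came from GENCODE release 44, while the authors counted on an older annotation release. On simulated data for the CBC test, 94% of 200 genes changed 4-fold were recovered among 16067 tested. Those genes were well counted, changed alike in both lines and were drawn with a spread common to all genes. The share therefore does not tell how often smaller changes, or changes that differ between the lines, would be found.

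The genes and lists were chosen with earlier results of these data known. Named are the 10 genes, genes of the metal lists past 2-fold in a line or called over both, 5 stress genes, and the 5 genes nearest the sum. Alternatives changed scaling, filter, prior count, values, summed genes, block, tool and pairs of libraries.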

Additional observations from a re-analysis of the deposited data

Results flagged for a closer look

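Of 16 named genes with at least 1 CPM in both lines, 7 (43.8%) went in opposite directions in the 2 lines after CBC, with both counting intervals clear of 0. Of all 12502 genes with that level, 12.7% did. Some of the 16 were named because they were past 2-fold in a line. The shares are also not matched for level, although counting intervals narrow as counts grow, and no more is read from them. The difference was not tested, since each condition had 1 library, and the lines also differed in dose. The log2 fold change in MIA PaCa-2 minus that in PANC-1 cells was 1.15 for SLC30A1 (0.80 and -0.35) and 0.96 for SLC39A10 (0.28 and -0.68), the exporter and the importer at the plasma membrane. It was 0.32 for MT2A (0.04 and -0.28), where the first interval only just excludes 0 and the change was 0.02 with DESeq2 size factors. Outside the 10 genes it was 1.28 for the importer SLC39A7 (1.10 and -0.18), 1.59 for HSPA1A (0.52 and -1.08), 1.19 for HSPA1B (0.34 and -0.85) and -1.25 for GCLM (-0.51 and 0.73). HSPA1A and HSPA1B are near-identical copies whose reads the counting could split, so their 2 values are uncertain and not independent.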

How the results depend on the processing

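With library totals in place of TMM the metallothionein sum moved to 0.06 in MIA PaCa-2 cells (from -0.01), to -0.18 in PANC-1 cells (from -0.25) and to 1.11 between the lines (from 0.98), where 5 genes in place of 3 were past 2-fold. Without MT2A these sums were -0.07, -0.16 and 1.86. Over all listed metallothioneins the sum was -0.38 in PANC-1 cells and 0.54 between the lines. With no filter on low counts 2 of the genes were past 2-fold after CBC in PANC-1 cells, the second being MT1F. Over both lines, DESeq2's Wald test and edgeR without a filter each called 1 of the genes, MT1X, in place of 0. All genes called after CBC numbered 771, and 1296 with DESeq2, 2063 unfiltered, 408 where 5 CPM were required in 2 libraries and 0 without the cell line as a replicate block. Without the block SLC39A10 changed sign, to 0.04 from -0.19, neither past the threshold. The causes were not tested. The 6 genes called between the lines stayed 6 under every alternative run. Leaving out the pair of 1 line leaves a value with no test, which for SLC30A1 ran from -0.35 to 0.80 and for SLC39A10 from -0.68 to 0.28. At this depth MT1F and MT1M were too scarce for a firm comparison.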
